A study of Mus musculus with 15 samples.

Results

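After partial pancreatectomy (PPx, in which a portion of the organ is cut away), most open chromatin peaks of mouse islets read higher in Arid1a βKO than in control islets, and a minority read the other way. The regions described here are the clearer part of that minority: peaks whose control log2 concentration after PPx was at least 0.2 above the βKO value in the authors' deposited table. Of 13111 peaks in that table, 704 (5.37%) met this rule, and they carry 652 of 9846 gene symbols. They are called control-higher peaks below. They were chosen by their deposited levels in the genotype comparison after PPx, so those levels only describe them. The rule reads no value of the genotype comparison before PPx, which used other mice, although earlier results of these data were known when the rule was set.

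ATAC-seq, in which a transposase tags accessible DNA, was run on islets of 15 male mice aged 3 months. Every mouse was homozygous for floxed Arid1a (Arid1aFl/Fl) and carried MIP-rtTA, a doxycycline-dependent activator under an insulin promoter. Controls had no Cre, whereas βKO mice added TRE-Cre, which makes the recombinase where activator and drug meet, so the deletion is aimed at β cells. All groups received doxycycline at 1 g/L in drinking water for 2 weeks. Islets came from 4 control and 3 βKO mice without surgery, and from 4 control and 4 βKO mice 6 days after PPx, which followed 1 week after the drug was stopped. Whole islets also hold α, δ, endothelial, stromal and immune cells, which the transgene does not target, and in bulk chromatin fewer cells of a type and less signal per cell cannot be told apart. The values are group means made by the authors, and no value of a single library was analysed here: depth and the spread between mice are seen only through the deposited p-values and call counts.

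Arid1a encodes a large subunit of the BAF form of SWI/SNF, a remodeller that uses ATP to slide and evict nucleosomes. BAF is known above all for keeping enhancers open, together with sequence-specific transcription factors, while many CpG island promoters keep a nucleosome-free region with less need of it. In β cells, distal enhancers hold much of the identity program that keeps insulin expression and glucose sensing in place.

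Only a small part of the control-higher peaks sat on gene starts, and the sequences below show what kinds of start they were. RefSeq windows of the build GRCm38.p6, which run from 250 bases before to 50 after a start, lay wholly inside a peak at some starts: 31 in control-higher peaks and 4446 in other peaks. The 250 bases before the start are printed 5′ to 3′ on the gene's strand for 4 of them, with each CpG in capitals, as 2 examples with few CpGs and 2 with many. Cep126, which encodes a centrosomal protein, has chr9:8123665-8123914 on the minus strand, and Upb1, an enzyme of pyrimidine breakdown, has chr10:75406661-75406910 on the plus strand. Pgk1, the glycolytic phosphoglycerate kinase, has chrX:106186850-106187099 on the plus strand, and Thop1, a peptidase, has chr10:81069833-81070082 on the plus strand.
Cep126: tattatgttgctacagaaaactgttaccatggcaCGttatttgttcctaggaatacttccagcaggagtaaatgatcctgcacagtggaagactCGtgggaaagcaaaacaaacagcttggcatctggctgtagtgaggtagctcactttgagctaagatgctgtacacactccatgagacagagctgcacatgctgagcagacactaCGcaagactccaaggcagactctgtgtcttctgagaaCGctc
Upb1: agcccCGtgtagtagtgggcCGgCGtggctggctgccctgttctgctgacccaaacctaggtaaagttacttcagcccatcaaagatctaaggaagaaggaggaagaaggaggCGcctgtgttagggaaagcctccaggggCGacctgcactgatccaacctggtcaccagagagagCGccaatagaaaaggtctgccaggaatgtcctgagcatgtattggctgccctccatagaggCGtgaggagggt
Pgk1: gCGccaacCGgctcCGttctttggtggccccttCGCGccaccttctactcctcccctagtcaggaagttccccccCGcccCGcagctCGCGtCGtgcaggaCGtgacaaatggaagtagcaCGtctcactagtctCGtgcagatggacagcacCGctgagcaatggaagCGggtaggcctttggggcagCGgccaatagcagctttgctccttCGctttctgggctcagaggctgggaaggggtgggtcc
Thop1: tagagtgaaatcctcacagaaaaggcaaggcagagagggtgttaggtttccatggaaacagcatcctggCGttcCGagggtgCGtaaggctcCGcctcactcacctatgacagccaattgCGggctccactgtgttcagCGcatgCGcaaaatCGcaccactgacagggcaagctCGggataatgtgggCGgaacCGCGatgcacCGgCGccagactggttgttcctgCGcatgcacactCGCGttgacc

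The ratio of observed to expected CpG over the 300-base window was 0.302 at Cep126 and 0.333 at Upb1, against 0.723 at Pgk1 and 0.952 at Thop1. Over the 31 windows in control-higher peaks the median ratio was 0.738 (quartiles 0.351 and 0.940). In other peaks it was 0.805 (0.665 and 0.926), and over all 32851 RefSeq windows 0.384. The lower quartile shows that the CpG-poor end was more filled among control-higher peaks, although 31 windows are few. GC content had medians of 60.7%, 62.3% and 52.7% in the same order. The ETS word CCGGAAG, searched on both strands, stood in 25.8% of the 31 windows, 21.0% of windows in other peaks and 8.86% of all windows. The AP-1 word TGANTCA stood in 6.45%, 3.80% and 7.81%, and the FOXA word TGTTTAC in 0 of 31, 2.45% and 3.65%. The E-box CANNTG (71.0%, 60.8% and 72.3%) and the TATA word TATAAA (9.68%, 5.49% and 13.6%) lay between the share in other peaks and that over all windows. The NKX6 word TAATTA stood in 1 of the 31 (3.23%, 2.02% and 5.29%). The core word of CTCF was less frequent in control-higher than in other peaks (25.8%, 34.2% and 24.0%), and the NRF1 word stood in 1 of the 31 (3.23%, 2.54% and 0.971%). These words were counted independently, and a match describes letters, not bound factors.

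The printed starts differed widely in signal. In the authors' deposited table, the peak over the Cep126 window read 3.85 (control) and 2.89 (βKO) after PPx, and the authors annotate it to intron 2 of 10 of a longer transcript. Upb1 read 3.02 and 2.72, Thop1 read 3.66 and 3.31, and Pgk1 read 8.76 and 6.68 in the same table. One microRNA lay under a control-higher peak and had a mature sequence in RefSeq, printed with its seed (bases 2 to 8) in capitals, at chr9:110281353-110281371 on the plus strand.
mmu-miR-6236: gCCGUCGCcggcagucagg

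For the Mir6236 peak the authors' deposited table gave 5.69 in control against 5.05 in βKO islets after PPx (FDR 0.104). Before PPx the same place read 5.81 and 5.63 (p = 0.759) in the authors' deposited table.

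As a group, control-higher peaks were weaker than the rest. The median of their mean log2 concentration was 3.335 (quartiles 2.98 and 3.732), against 3.84 at the 12407 other peaks. A log2 concentration is the log2 of a group's mean normalised read count at a peak, as DiffBind reports it, so 1 unit is a 2-fold step. Their control level (median 3.55) was almost that of other peaks (3.53), whereas their βKO level was 3.085 against 4.10. The control-minus-βKO difference had a median of 0.43, quartiles of 0.29 and 0.66, and a maximum of 2.6. Over the whole table the βKO level was the higher one by a median of 0.61. A higher control level of any size was read at 1239 peaks (9.45%). The share of control-higher peaks declined with strength, from 12.5% of peaks under a mean log2 concentration of 3 to 1.33% between 4.5 and 5 and 1.75% over 5.

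The threshold falls in the middle of a continuum. The authors' deposited table gave 3.68 and 3.48 (control and βKO) both for a peak in intron 6 of 11 of Nt5dc1 and for a distal peak near Arl4a, a difference of 0.2 that is just inside. Just outside, at 0.19, lay a distal peak near Gm24064 (3.22 and 3.03) and one in intron 1 of 27 of Erbb4 (4.38 and 4.19) in the same one of the authors' deposited tables. In all, 17 peaks stood at exactly 0.2.

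**Figure D1:**
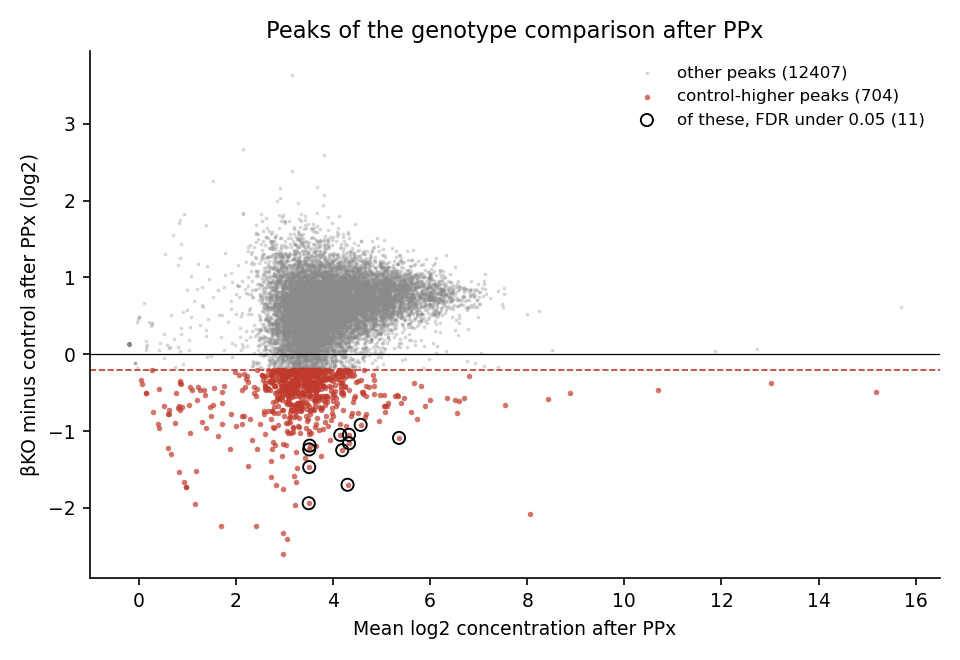
Each point is a peak of the genotype comparison after PPx, with its mean log2 concentration on the x axis and the βKO-minus-control log2 difference on the y axis. The 704 control-higher peaks lie at or under -0.2 by their definition, and most of them sit at the weak end of the x axis, with a median of 3.335.

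The clearest property that the rule did not use was position relative to genes. By the authors' annotation, 114 control-higher peaks (16.2%, exact 95% interval 13.5% to 19.1%) lay in promoters, meaning within 3 kb of a start, against 64.0% of other peaks. Within 1 kb of a start the counts were 87 (12.4%) against 61.0%. Distal intergenic peaks made up 350 (49.7%, interval 46.0% to 53.5%) against 21.6%, and introns 201 (28.6%) against 11.8%. Exons held 20 control-higher peaks, 3′ UTRs 12, downstream regions 7 and 5′ UTRs 0 of the 13 peaks listed there. The intervals treat peaks as independent, which peaks of the same locus are not. Read the other way, 1.42% of the 8050 promoter peaks were control-higher, whereas 590 of the 5061 peaks outside promoters (11.7%) were. Distal (11.6%) and intronic peaks (12.0%) hardly differed in this share.

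The contrast was also present within each bin of mean log2 concentration. Promoters held 15.4% of control-higher and 47.8% of other peaks between 3 and 3.5, and 12.4% against 60.8% between 3.5 and 4. Over 5 the shares were 29.0% and 88.3%. The narrowest gap was under 3, with 20.7% and 38.6%.

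**Figure D2:**
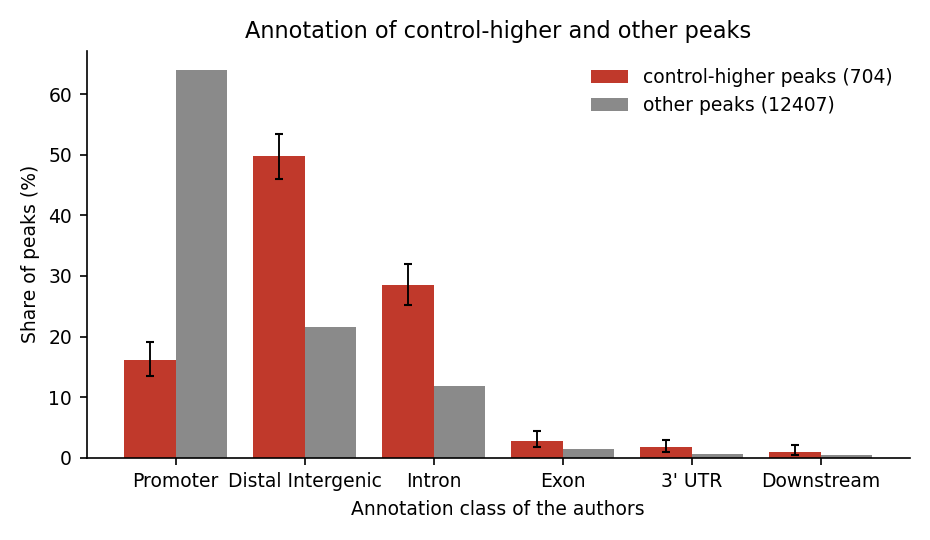
Bars give the share of peaks in percent by the authors' annotation class, for the 704 control-higher (with exact 95% intervals) and the 12407 other peaks after PPx. Promoters hold 16.2% of the control-higher and 64.0% of the other peaks, and distal intergenic sequence 49.7% and 21.6%.

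The median distance from a peak's centre to the nearest RefSeq start was 40.9 kb at control-higher peaks and 0.608 kb at the others. Outside promoters it was 47.8 kb against 37.5 kb, and 33.9% against 26.5% were over 100 kb away. Protein-coding genes named for control-higher peaks were longer, with a median of 82.9 kb against 39.5 kb. Within a class the gap was smaller, with 181.8 and 181.3 kb at intronic and 33.8 and 30.4 kb at promoter peaks. Of 624 control-higher peaks whose symbol was found in RefSeq, 74.8% were assigned to protein-coding genes (others 86.4%), 11.4% to pseudogenes (3.28%) and 3.85% to small nuclear RNA genes (1.31%). These symbols are the nearest annotated gene, which for a distal peak need not be its target.

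Some stretches held more than others. On chromosome 5 between 14 and 16 Mb, a region of predicted genes and of the Speer family (spermatogenesis-associated, glutamate-rich proteins), 11 of 21 peaks were control-higher, by 0.8 to 2.24. Within the first 4 Mb of a chromosome, 18 of 164 peaks (11.0%) were control-higher. Peaks named for vomeronasal receptor genes, which sense pheromones and lie in repeated arrays, were control-higher at 6 of 19. Predicted genes and clones were so at 243 of 2643 (9.19%), and Zfp zinc-finger genes at 5 of 270 (1.85%), both against 5.37% of all peaks. By chromosome the share ran from 2.48% on X and 2.99% on 19 to 8.67% on 15. In repeated families and in satellite-like sequence, reads from near-identical copies may be split between places, so these peaks are uncertain.

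How often a peak was called in single libraries moved with the rule. At least 2 of the 4 control libraries called 384 control-higher peaks (54.5%, others 43.5%), while at least 2 of the 4 βKO libraries called 347 (49.3%, others 94.3%). Both genotypes reached 2 calls at 224, control alone at 160 (22.7%, others 0.637%), βKO alone at 123, and neither at 197 (28.0%, others 5.09%). At those 123 the call counts and the levels point opposite ways. All 8 libraries called 61, and no βKO library called 71. The lowest βKO level in the authors' deposited table, -0.13, was shared by 170 peaks, among them 14 control-higher ones with control levels from 0.20 to 1.82. Of these 14, 9 were called in at least 2 βKO libraries, and 2 were called in all 8, namely a distal peak near Csmd3 and one in intron 2 of 7 of Gnb1l. For both, the authors' deposited table gave 1.60 in control against -0.13 in βKO islets after PPx.

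The authors' FDR was under 0.05 in the lower direction at 11 peaks, all of them control-higher by construction, which is 0.0839% of the table. An unadjusted p under 0.05 was found at 69 (0.526%). No control-higher peak could be called higher, whereas 9.88% of the table passed the FDR in that direction and 33.0% the unadjusted p. The FDR was 1 at 437 control-higher peaks (62.1%, others 33.0%). The control-higher peaks named below with a mean log2 concentration under 3.5 all had an FDR of 1, whatever their unadjusted p. Since control-higher peaks were weaker (median 3.335 against 3.84), these 2 shares do not compare tested results alone.

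Most of the 11 lay near predicted genes of no known product. The smallest FDR, 0.0212, was shared by a distal peak near Gm22464 (chrX:15753602-15754202), at 4.91 in control and 3.21 in βKO islets, and by a peak 2 to 3 kb downstream of Gm10354 (chr5:14971155-14971755), at 4.17 and 2.23, by the authors' deposited table. Near Gm5466 a distal peak read 5.80 and 4.71 (FDR 0.0286), and that near Gm21860 on Y read 4.69 and 3.44 (FDR 0.0341), in the same one of the authors' deposited tables. Pkhd1, which encodes fibrocystin of the primary cilium and is a duct marker, had its peak in exon 61 of 67 (chr1:20117046-20117646), at 4.79 and 3.63 (FDR 0.0345) by the authors' deposited table. Ndufb3, a subunit of mitochondrial complex I, is the nearest gene to a distal peak at chr1:58613678-58614278, which read 3.99 and 2.80 (FDR 0.0469) in the authors' deposited table and was called in 4 control and 0 βKO libraries. The other 5 of the 11 were near Gm17377, Gm22563, Gm25255, Gm12362 and Gm20812, with an FDR between 0.0377 and 0.0459 in the authors' deposited table.

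The 10 largest differences at genes with established symbols all had an FDR of 1. Apart from Pgk1, these peaks were weak, at a mean log2 concentration of 3.25 or less. The peaks named here at such levels had an FDR of 1 even beside a small unadjusted p, so it does not show a tested lack of difference. A distal peak near Lrrc7, a scaffold protein of synapses, read 3.71 and 1.38 (unadjusted p = 0.000214, FDR 1) in the authors' deposited table. Agpat4, a lysophospholipid acyltransferase, read 3.43 and 1.73, Vps45, an endosomal trafficking protein, 3.85 and 2.19 in intron 7 of 14, and Zfr, an RNA-binding zinc-finger protein, 3.81 and 2.33 in the same one of the authors' deposited tables. The Speer4cos promoter (3.61 and 1.86), D5Ertd579e (3.31 and 1.71) and a distal peak near Zfp873 (1.74 and 0.22) completed the 10 with Csmd3, Gnb1l and Pgk1 in the authors' deposited table.

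The Pgk1 promoter stood apart in the deposited statistics. The authors' deposited table gave 8.76 against 6.68 with a p-value of 1 at chrX:106186575-106187175. Before PPx the promoter read 5.01 in control and 5.09 in βKO islets (p = 0.774) in the authors' deposited table. Between times it went from 4.84 to 8.81 in control islets with a p-value of 1, and from 4.84 to 6.67 in βKO islets (p = 0.00479, FDR 0.0503), in the authors' deposited tables. Why a p-value of 1 stands beside a difference of 3.97 log2 units cannot be told from group means. The differences with that p-value are therefore not read as tested.

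The 5 strongest control-higher peaks lay mostly near predicted genes. The promoter-annotated peak of Gm10800 read 15.42 (control) and 14.93 (βKO), Gm10801 read 13.19 and 12.81, and Gm5614 10.91 and 10.44 after PPx in the authors' deposited table. Gm21738 read 9.11 and 8.60, and a distal peak near Ly6c2, a surface antigen of monocytes, 8.69 and 8.11 in the same one of the authors' deposited tables. Their FDR lay between 0.122 and 0.261, and such levels are far over the table's median of 3.8.

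Several control-higher peaks clustered at 8 symbols with 3 each (36 more symbols had 2). At Pkhd1 the other 2 were in the 3′ UTR (4.37 and 3.95) and in intron 60 of 66 (3.63 and 3.41) in the authors' deposited table. Adgrv1, an adhesion receptor of sensory hair cells, had peaks in exon 67 of 90 (3.63 and 2.91) and in 2 introns of different transcripts (3.00 and 2.58, 3.49 and 3.27) in the authors' deposited table. Trps1, a GATA-type repressor, had 1 intronic and 2 distal peaks, with control levels from 2.83 to 3.82, and Ank, a pyrophosphate transporter, had 2 intronic and 1 distal peak from 3.66 to 4.37, in the authors' deposited table. Tcte2, Zfy1, Gm17019 and Gm5466 held the other groups of 3. Of these 24 peaks, 2 had an FDR under 0.05, at Pkhd1 and Gm5466.

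The comparison of genotypes before PPx, from 4 control and 3 βKO mice that the rule did not use, showed where these peaks stood without surgery. Peaks were matched when their centres lay within 600 bp, which gave a partner to 303 of the 704 (43.0%, others 58.0%), of which 240 had one within 100 bp. The median βKO-minus-control difference before PPx was -0.43 (quartiles -0.73 and -0.09) at these 303, against 0.01 at 7201 other matched peaks and -0.01 over the whole table of 7826. The βKO level was the lower one at 243 of 303 (80.2%), against 48.4% of the others. Median levels before PPx were 3.84 in control and 3.43 in βKO islets, and after PPx 3.96 and 3.46 at the same peaks. At other matched peaks they were 4.10 and 4.06 before, and 4.01 and 4.67 after. Levels before and after PPx come from separate genotype comparisons and are not on a common scale. The Gm22464 peak read 4.52 in control islets before PPx here, but 4.29 for the same group in the comparison of times, in the authors' deposited tables. These levels therefore compare genotypes within a time, not times. At the matched control-higher peaks the median control level was thus above the βKO level both without surgery and after it. A description of these peaks as resisting a gain after PPx leaves out this difference before PPx.

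**Figure D3:**
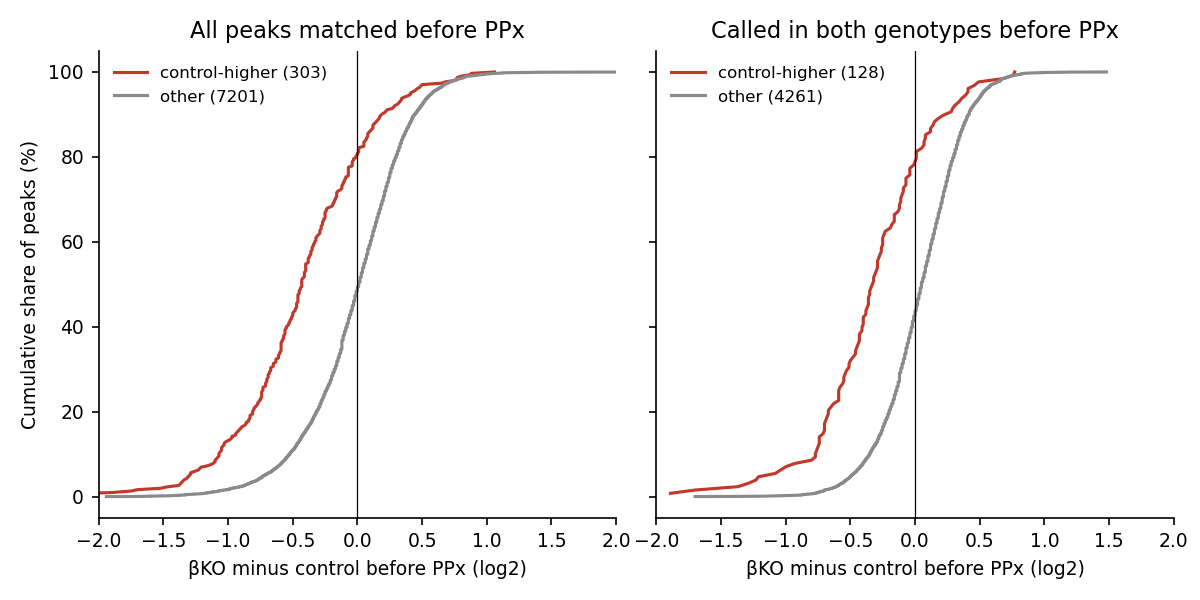
Cumulative shares of peaks (y axis) are drawn against the βKO-minus-control log2 difference before PPx (x axis, shown from -2 to 2). One panel holds all peaks matched before PPx, and the other those called in at least 2 libraries of both genotypes before PPx. Through the middle of both panels the control-higher curve lies left of the other curve. The medians are -0.43 against 0.01 at all matched peaks and -0.325 against 0.05 at those called in both genotypes.

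Single peaks were rarely resolved before PPx. No control-higher peak passed an FDR of 0.05 in the lower direction, and neither did any of the table (0.0%), while 0.0128% of the table passed in the higher direction. At an unadjusted p under 0.05, 32 of 303 (10.6%) were lower, against 2.3% of the table and 1.79% of the other matched peaks. Of these 32, 23 were called in at least 2 libraries of control islets alone before PPx, the group in which they were higher. In that class 21.1% of 109 control-higher and 10.4% of 1011 other peaks were lower at that p, so the mix of classes enters the comparison over all matched peaks. One (Gm6264) was higher, against 0.843% of the table. These counts come from the authors' deposited p-values, one peak at a time.

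The direction held across classes. The median difference before PPx was -0.27 at 53 promoter peaks (others 0.05), -0.46 at 155 distal (-0.11) and -0.44 at 80 intronic peaks (-0.20), and all 7 matched exonic peaks were lower. In 12 strata of strength and promoter class, control-higher peaks had the lower median in 11, the exception being promoters under a mean log2 concentration of 3 (-0.03 against -0.12, with 15 control-higher peaks). Outside promoters the medians stayed between -0.40 and -0.575 in the 6 strength bins.

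Which libraries listed a peak moved with this result and is given beside it. Among 128 matched control-higher peaks called in at least 2 libraries of both genotypes before PPx, the median was -0.325 and 78.1% were lower, against 0.05 and 42.5% at 4261 others. Of these 128, 6 (4.69%) were lower at an unadjusted p under 0.05, against 0.469% of the others. Peaks called in control alone had a median of -0.71 (109 peaks, others -0.46), those called in βKO alone 0.11 (20 peaks, others 0.24), and those in neither -0.31 (46 peaks, others -0.08). The 401 control-higher peaks with no partner were weaker (median mean level 3.18, against 3.71 with one) and have no value before PPx.

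Peaks with a larger difference after PPx did not have a larger one before it. Peaks with 0.2 to 0.29 after PPx had a median of -0.47 before (66 matched), those with 0.3 to 0.49 had -0.45 (88), those with 0.5 to 0.99 had -0.43 (117), and those at 1 or more had -0.285 (32). The 208 matched peaks just outside the rule, with a βKO-minus-control change from -0.19 to 0 after PPx, had -0.355. From there the median before PPx rose with the change after PPx, to 0.16 at the 63 peaks with a change of 1.41 to 3.64. The 2 genotype comparisons share no library.

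**Figure D4:**
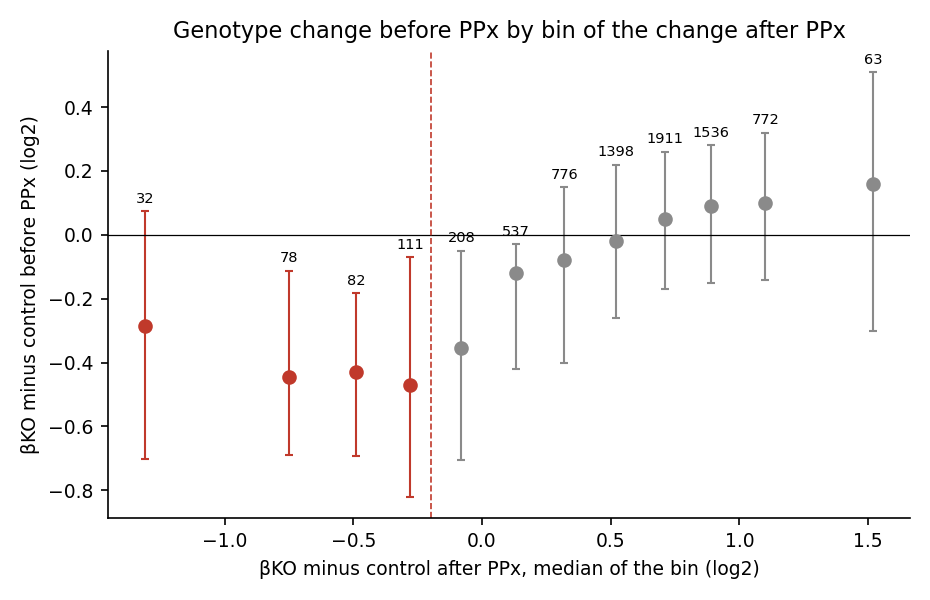
Points give the median βKO-minus-control log2 difference before PPx (y axis), and bars its quartiles, in bins of the same difference after PPx (x axis, median of the bin). The 4 bins of control-higher peaks have medians between -0.285 and -0.47, and the highest bin has 0.16.

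Individual peaks gave examples with their errors, each implied by the deposited fold and p-value. Before PPx the distal peak near Cntnap5b, a contactin-associated neural protein, read 3.71 in control and 1.33 in βKO islets (p = 0.000583, standard error 0.692) in the authors' deposited table, and after PPx 3.33 and 2.98. A distal peak near Fam107a, an actin-associated stress protein, read 4.73 and 3.03 (p = 0.00116, standard error 0.523) before and 4.37 and 3.92 after in the authors' deposited tables. Kirrel3, an adhesion molecule of synapse formation, read 4.51 and 3.19 (p = 0.00233, standard error 0.434) before and 4.66 and 3.73 (FDR 0.0687) after, in intron 2 of 16, in the authors' deposited tables. Tmem267 in intron 3 of 3 read 4.75 and 3.40 (p = 0.0017) before and 5.00 and 4.18 after, and Prkd1, the kinase PKD1, in intron 17 of 18 read 4.21 and 2.87 (p = 0.00491) before and 3.95 and 3.56 after, in the authors' deposited tables. In all 5 the FDR before PPx was 1. Before PPx the Cntnap5b peak was called in 2 control and 0 βKO libraries, Kirrel3 in 4 and 0, and Prkd1 in 3 and 0, so these were called only in the group where they were higher, and their p-values are tied to that. Fam107a was called in 4 control and 3 βKO libraries, and Tmem267 in 0 and 3. The other direction was weaker: Gm6264 read 3.36 in control and 4.23 in βKO islets (p = 0.0458), Gm24697 read 3.97 and 4.73 (p = 0.0527), and Cntn5, a contactin of neurons, read 3.16 and 4.04 (p = 0.0786) before PPx in the authors' deposited table. Gm21847 (2.62 and 3.39, p = 0.213) and Zfp36l1-ps (2.49 and 3.29, p = 0.217) followed in the authors' deposited table.

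Of the 11 peaks with an FDR under 0.05 after PPx, 9 had a partner before it and 2 had none. The βKO level was the lower one at all 9, by amounts that varied widely. Gm22464 read 4.52 and 3.52 (p = 0.0121), Gm22563 read 4.29 and 3.19 (p = 0.0128), and Gm20812 read 5.03 and 4.26 (p = 0.0539) in the authors' deposited table. Pkhd1 exon 61 read 4.33 and 4.17 (p = 0.674), Ndufb3 read 3.70 and 3.69 (p = 0.994), and Gm12362 3.90 and 3.74 (p = 0.843) in the same one of the authors' deposited tables. Gm10354 (2.40 and 1.69, p = 0.412), Gm5466 (5.80 and 5.25, p = 0.337) and Gm25255 (4.91 and 4.32, p = 0.174) lay between in the authors' deposited table. Near Ndufb3 the genotypes lay together before PPx and 1.19 apart after it, whereas at Gm22563 they were 1.10 apart before PPx. Whether the 2 differences of a peak differ from each other was not tested. On chromosome 5 between 14 and 16 Mb, 8 of the 11 control-higher peaks had a partner, with a median of -0.09 and 4 of 8 lower. In the first 4 Mb of chromosomes the median was -0.41, with 12 of 13 lower. On chromosome 5 the partner's centre was 405 bp away at Gm10354, 407 bp at Speer4cos, 535 and 192 bp at Gm17019 peaks and 146 bp at Gm21847. Some may thus be other peaks, including the Gm10354 partner counted among the 9, and the contrast of stretches is uncertain.

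**Figure D5:**
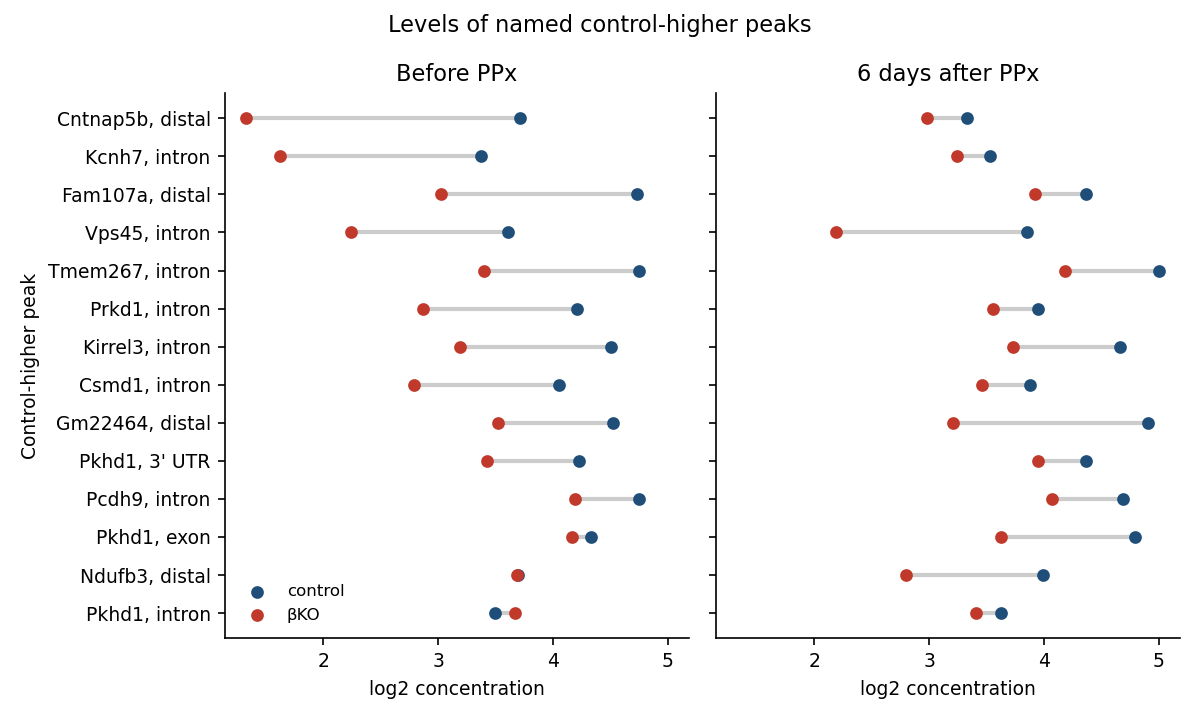
Points give the authors' log2 concentrations (x axis) in control and βKO islets for named control-higher peaks, before and after PPx, with no error bars because the values are group means. At Kirrel3 the βKO point lies left of the control point at both times (3.19 against 4.51 and 3.73 against 4.66), whereas near Ndufb3 the points nearly coincide before PPx (3.69 and 3.70) and lie apart after it (2.80 and 3.99).

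The comparisons of times share libraries with the rule, so their values are only set side by side. In control islets 492 control-higher peaks were matched, with a median after-minus-before difference of 0.445 against 0.16 at other peaks. At an unadjusted p under 0.05, 56 (11.4%) were higher after PPx, against 2.43% of the table, and 0 were lower, against 0.0991%. None passed an FDR of 0.05 (0.0% of the table in either direction). In βKO islets 418 were matched, with a median of 0.335 against 0.86. Of these, 31 (7.42%) were higher at an unadjusted p under 0.05, against 39.4% of the table, and 2 passed the FDR, against 7.44%. Those 2 were distal peaks near Gm9081 (2.41 before, 3.94 after, FDR 0.0468) and Gm23848 (2.41 before, 4.01 after, FDR 0.0484) in the authors' deposited table. One was lower at an unadjusted p under 0.05 (0.0235% of the table), near Gm23255, at 3.78 before and 2.12 after (p = 0.0141) in the authors' deposited table. The after-PPx level in βKO islets was the higher one at 299 of the 418 matched peaks (71.5%, others 98.8%).

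Genes that define β cells had a control-higher peak about as often as any gene. Of 20 measured genes of β-cell identity 1 (5.0%) had one, against 6.62% of all symbols. Over the 32 peaks of the identity genes, the median βKO-minus-control change after PPx was 0.605, near the table's 0.61. The same median was 0.71 over the peaks of other endocrine genes, 0.18 for duct, 0.26 for endothelial, 0.34 for neural adhesion and 0.305 for ion channel genes. It was 0.625 for acinar, 0.45 for stromal, 0.675 for leukocyte, 0.705 for SWI/SNF and 0.61 for immediate early genes, on 2 to 28 peaks each.

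Markers of other cells were few in number, so their lists say little. Other islet endocrine cells had 1 of 7 measured genes, Etv1, with 3.35 and 2.99 at its promoter in the authors' deposited table. Endothelial cells had 1 of 6, a distal peak near Cdh5, the VE-cadherin of vessel walls, at 3.54 and 3.00 in the authors' deposited table. Duct cells had 1 of 4, Pkhd1, with 3 control-higher peaks among the 11 of the list. Acinar (0 of 2), stromal (0 of 4) and leukocyte genes (0 of 2) had none. Of all these lists' peaks, 1 passed the FDR in the lower direction, the exonic Pkhd1 peak. In the higher direction 1 duct peak and 2 peaks of other endocrine genes passed, as did 4 of β-cell identity genes, where 9.88% of the table did. Changes after PPx at the 11 duct peaks ran from -1.16 to 1.19, so Pkhd1 does not stand for its list. The part of cell composition in the control-higher peaks was not tested.

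Neural adhesion and synapse genes, which are long and hold many intergenic and intronic peaks, were the most frequent list by number of genes. Of 34 measured genes 14 had a control-higher peak, but by peaks the share was 16 of 128 (12.5%), and outside promoters 15 of 106 (14.2%), beside 11.7% of all peaks outside promoters. Before PPx 7 of their 9 matched peaks were lower, with a median of -0.56. Csmd1, a complement-like membrane protein, read 4.05 and 2.79 (p = 0.0292) before and 3.88 and 3.46 after PPx in intron 5 of 69 in the authors' deposited tables, and was called before PPx in 2 control and 0 βKO libraries. Negr1, a neuronal growth regulator, had 2 intronic peaks after PPx, at 3.26 and 1.87 in intron 1 and at 3.38 and 3.06 in intron 4 in the authors' deposited table. Pcdh9, a protocadherin, had 2 peaks in intron 3, at 4.69 and 4.07 and at 3.86 and 3.14, in the authors' deposited table. Single peaks at Cdh12, Cntn5, Cntnap2, Ctnna3, Dlg2, Magi2 and Nrxn3 had control levels between 1.05 (Cntnap2) and 4.15 (Magi2) after PPx in the authors' deposited table. None of the 16 had an FDR under 0.05.

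Ion channel genes had 6 of 27, with 6 of 62 peaks (9.68%) and 6 of 45 outside promoters (13.3%). The largest difference before PPx was at Kcnh7, a voltage-gated potassium channel, in intron 7 of 15, with 3.37 and 1.62 (p = 0.00973) before and 3.53 and 3.24 after PPx in the authors' deposited tables. Before PPx the Kcnh7 peak was likewise called in 2 control and 0 βKO libraries. Kcnb2 (3.98 and 3.63) and Kcnh8 (3.78 and 3.42), also potassium channels, were lower in βKO islets before PPx by value only (p = 0.464 and p = 0.749) in the authors' deposited table. Cacna1d, an L-type calcium channel of β cells, read 3.10 and 2.49 after PPx in intron 8 of 46, and distal peaks near Grin2a (3.46 and 3.19) and Kcnc2 (3.25 and 2.84) were alike in the authors' deposited table. SWI/SNF subunit genes had none among 13 measured genes and 16 peaks. Immediate early and AP-1 genes had 1 of 18, Myc, the growth-promoting transcription factor, through 2 distal peaks (3.99 and 3.42, and 3.71 and 3.09) in the authors' deposited table. The first of the Myc peaks read 3.37 and 3.42 before PPx (p = 0.917) in the authors' deposited table, and the second had no partner.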

How the data were processed

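ATAC-seq of islets from 15 mice was processed by the submitters with cutadapt, BWA, MACS, DiffBind and ChIPseeker on mm10 (GRCm38), per the submitters' processing notes; the sources used here give no versions or settings. Per the file headers, the 4 deposited tables hold, for each peak of 601 bp, log2 concentrations per group and a log2 fold, a p-value and an FDR, and a count of the libraries that called it. The authors' fold (control minus βKO, before minus after) was turned in sign. Repeated positions were counted once (18392 rows gave 13111 peaks), and 1 blank row of the table before PPx was left out.

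Peaks of different tables were paired by nearest centre within 600 bp with Python 3.11.15, pandas 2.3.3, numpy 2.4.6 and scipy 1.17.1. A standard error was derived as the change divided by the normal quantile of the deposited p-value, where p was under 0.5. The pairing and counts were tested on simulated data. Lists are described by counts and medians without tests. Members and gene lists were chosen with earlier results of these data known. Named peaks are those with an FDR under 0.05, the 10 largest differences at genes with established symbols, the 5 strongest, symbols with 3 peaks, the 5 smallest p-values before PPx in each direction, peaks on the gene lists and those at the threshold, of which some are not reported here. Sequence was read only in RefSeq promoter windows (GRCm38.p6), in place of whole peaks as planned.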

Additional observations from a re-analysis of the deposited data

How the results depend on the processing

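In 19 of 35 recomputed values the result moved by less than the margin set for it, and none changed sign. With a threshold of 0, 1239 peaks counted as control-higher, with a threshold of 0.5, 289, with repeated rows kept, 1122, and with only peaks at or above the median concentration, 159. Peaks that passed the authors' FDR numbered 0 at 0.01 and 33 at 0.1, while a Benjamini-Hochberg adjustment over all listed peaks gave 10 in place of 11. The similar count does not mean the same peaks, and those 10 cannot all be among the 11. Such an adjustment keeps the order of the unadjusted values. In that order the distal peak near Lrrc7, which is outside the 11, ranked ahead of most of them. The median difference before PPx (-0.43) was -0.27 in promoters only. It was -0.325 at peaks called in at least 2 libraries of both genotypes and -0.285 at peaks called in at least 2 βKO libraries before PPx, both chosen after seeing the data. Without the first 4 Mb of chromosomes, chromosome Y and concentrations over 8, also added later, it was -0.43. The change with PPx was 0.37 in control islets at a threshold of 0, and in βKO islets 0.49 at 0 and 0.065 at 0.5. Median strength was 3.55 by the control level, 3.085 by the βKO level and 3.4 at a threshold of 0, and the promoter share was 12.4% within 1 kb. Apart from the FDR cutoffs, these settings mostly count other peaks or read another group's level, and why each value moved was not tested.

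No paired analysis was possible because the tables hold group means and no replicate number is shared between groups. Leaving out libraries was not run, since values per library were not analysed here, and neither was the alternative on the central 300 bp of peaks, since no genome was used. Depth per library is unknown.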
